A study of Mus musculus with 2 samples.

Results

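Among the genes that the study's authors listed as different after Musclin treatment were 5 genes for short structural RNAs: Rn7s1 and Rn7s2, which encode 7SL RNA, Rn7sk, which encodes 7SK RNA, Rmrp, the RNA of RNase MRP, and Rpph1, the RNA of RNase P. They were found by gene name in the authors' deposited table, which holds 179 genes, and had been grouped because of their values there. Rn7s1 and Rn7s2 have the same sequence and the same printed values, so the 5 genes give 4 measurements. The cells were muscle-resident fibro/adipogenic progenitors (FAPs), a stromal cell that gives rise to fibroblasts and adipocytes, sorted from C57BL/6 mice and grown in DMEM with 20% fetal bovine serum and penicillin-streptomycin. For 72 hours, with fresh medium each day, they received 1 µM Musclin, a hormone-like muscle peptide also called osteocrin and used here as recombinant mouse protein, or as much vehicle. Each group was 1 library made from total RNA. The labels leave the vehicle unnamed, and the library headed PBS was taken to be the vehicle library. They also leave out the number of mice, the sorting gate, and whether poly(A) RNA was selected or ribosomal RNA depleted.

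All of these RNAs are made by RNA polymerase III, carry no poly(A) tail and work as the core of ribonucleoprotein particles. 7SL is the scaffold of the signal recognition particle, which brings ribosomes that make secreted and membrane proteins to the endoplasmic reticulum. 7SK holds the elongation kinase P-TEFb inactive through the protein Hexim1. The RNAs of RNase MRP and RNase P are related ribozyme subunits, of which RNase MRP cuts precursor ribosomal RNA and RNase P removes the leader of precursor tRNA. In growing cells such as cultured FAPs these RNAs are abundant, but standard mRNA libraries take up little of them.

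The sequences of Rn7sk, Rmrp and Rpph1 are from the annotated transcripts of GENCODE M21 (GRCm38), shown because their shortness and the bases they share with other genes bear on their values. Capitals mark bases that lie under an exon of Ccdc107 in Rmrp and of Ccnb1ip1 in Rpph1. In Rn7sk they mark the stretch that is identical in Gm24447.
Rn7sk, bases 1 to 300 (chr9:78175334-78175633, minus strand): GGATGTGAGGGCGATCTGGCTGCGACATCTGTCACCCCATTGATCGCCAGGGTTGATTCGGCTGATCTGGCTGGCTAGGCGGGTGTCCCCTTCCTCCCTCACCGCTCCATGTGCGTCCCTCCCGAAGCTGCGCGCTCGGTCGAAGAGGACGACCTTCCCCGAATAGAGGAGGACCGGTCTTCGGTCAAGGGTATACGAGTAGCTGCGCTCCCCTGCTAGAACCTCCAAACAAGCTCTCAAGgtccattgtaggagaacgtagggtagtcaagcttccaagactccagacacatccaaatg
Rmrp (chr4:43492788-43493058, minus strand): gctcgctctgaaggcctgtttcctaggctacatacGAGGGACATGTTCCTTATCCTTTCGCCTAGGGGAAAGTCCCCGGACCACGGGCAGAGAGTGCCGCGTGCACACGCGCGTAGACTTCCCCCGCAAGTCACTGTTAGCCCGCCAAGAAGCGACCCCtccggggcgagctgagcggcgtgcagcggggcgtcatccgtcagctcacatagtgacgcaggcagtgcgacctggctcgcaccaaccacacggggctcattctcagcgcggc
Rpph1, bases 1 to 300 (chr14:50807468-50807767, minus strand): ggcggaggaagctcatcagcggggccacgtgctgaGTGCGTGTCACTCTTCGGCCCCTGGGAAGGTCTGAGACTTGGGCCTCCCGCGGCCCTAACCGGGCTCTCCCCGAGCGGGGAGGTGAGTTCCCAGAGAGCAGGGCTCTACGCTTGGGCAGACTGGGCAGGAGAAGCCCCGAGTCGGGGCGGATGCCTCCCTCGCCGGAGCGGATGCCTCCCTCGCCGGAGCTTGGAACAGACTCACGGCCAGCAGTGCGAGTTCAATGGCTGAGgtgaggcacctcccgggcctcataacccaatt

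The transcripts were 271 nt (Rmrp), 300 nt (Rn7s1 and Rn7s2), 319 nt (Rpph1) and 331 nt (Rn7sk) long. Their GC content was 64.2% for Rmrp, 62.3% for Rn7s1, 67.1% for Rpph1 and 58.0% for Rn7sk, against a median of 48.7% over the 3176 annotated transcripts of 271 to 331 nt. The poly(A) signal AATAAA, searched on the transcript strand, occurred 0 times in each of them and in 14.0% of those transcripts. The longest run of A was 4 bases in Rn7s1, 3 in Rn7sk and in Rmrp, and 2 in Rpph1, and its median over the same transcripts was 4.

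The level of 7SL was 401.4 in the Musclin library, against 28.8 in the vehicle library, for each of Rn7s1 and Rn7s2. A level here is the authors' expression value per gene; whether it is TPM or FPKM, which are both per transcript length, is not stated. Summed over both copies, the level was 802.8 in the Musclin library and 57.7 in the vehicle library. For each copy, the authors' deposited table lists a fold of 13.5 (adjusted p = 6.32e-54). 7SK, from Rn7sk, had a level of 120.1 in the Musclin library and 19.2 in the vehicle library. The fold listed for it in the authors' deposited table was 6.13 (adjusted p = 1.37e-16). Both RNAs were thus higher with Musclin, 7SL by the larger factor.

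Of the RNase RNAs, Rmrp had a level of 68.6 in the Musclin library, against 1.99 in the vehicle library. For Rmrp, the authors' deposited table lists a fold of 33.0 (adjusted p = 9.49e-07). Rpph1 had a level of 34.0 in the Musclin library and 7.28 in the vehicle library, and the authors' deposited table lists a 4.55-fold difference for it (adjusted p = 0.00267). Rmrp was above Rpph1 in the Musclin library and below it in the vehicle library, so the order of the levels differed between the libraries. It was 7SL, 7SK, Rmrp and Rpph1 with Musclin, and 7SL, 7SK, Rpph1 and Rmrp with vehicle. The levels of the 4 RNAs, counting 7SL once, summed to 624.1 with Musclin and 57.3 with vehicle, a 10.9-fold ratio.

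**Figure D1:**
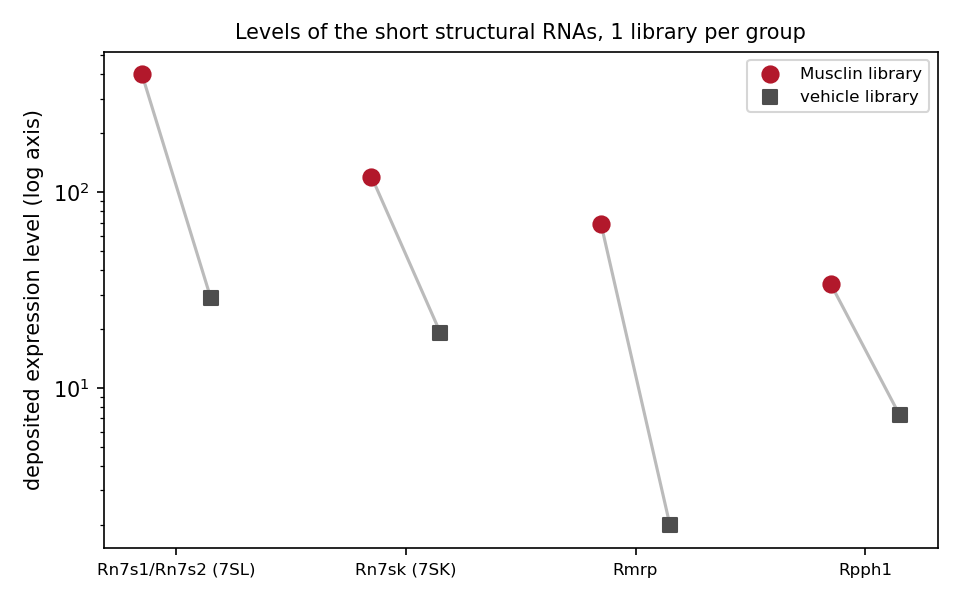
Deposited expression level (log axis) of the 4 distinct RNAs in the Musclin library (circles) and in the vehicle library (squares); each point is 1 library and a line joins the values of one RNA. All 4 RNAs are higher in the Musclin library, and Rmrp, at 68.6 against 1.99, shows the largest distance.

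With 1 library per group, none of these differences has a replicate check, and the authors' p-values compare the libraries, not the treatments. By the authors' criteria 4 of the 4 distinct RNAs were listed as higher with Musclin, as were 0.500% of the 23180 genes tested, and 0.772% were listed in either direction. The RNAs were chosen by this same contrast, so nothing follows from that count.

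The number of reads behind each fold is not in the authors' deposited table but could be worked out from it. There the log2 fold is printed to many digits. The fold computed back from it equalled 1.18 times a ratio of whole numbers for 54 of the 138 listed genes above 0 in both libraries. This counts vehicle numbers up to 120 and a relative error below 2e-10. The factor 1.18 is then the scaling between the libraries. Simple multiples of it would also give whole ratios, but 1.18 gave p-values nearest to those deposited. Their median distance was 0.26 on the log10 scale, against 0.49 to 1.06 for the 10 multiples tried. The distance was taken over genes with small pairs only, 46 of them at 1.18. For each gene it was the smallest over several multiples of its pair. For Rmrp the ratio was 28 to 1, for Rn7sk 109 to 21 and for Rpph1 27 to 7. For each copy of 7SL it was 251.55 to 22.0, and such numbers that are not whole arise when RSEM divides reads that fit several genes. The pair for 7SL was fixed only up to a common multiple, and the multiple nearest to the number expected from its level was taken.

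Multiples of the whole pairs would give the same fold, and the p-values decided between them. As log10, the p of Rn7sk in the authors' deposited table was -18.17. A doubled exact binomial tail on 109 and 21 reads gave -18.17, and on 2 times those numbers -35.85. For Rmrp the authors' deposited table gives -7.92, and 28 and 1 reads gave -7.97. For Rpph1 the authors' deposited table gives -4.16, against -3.87 from 27 and 7 reads, and for each copy of 7SL it gives -56.18, against -58.63. The scaling between the libraries, and the multiple of each whole pair, had been chosen by nearness to the deposited p-values. Closeness of the p-values is thus partly built in, and does not show how the authors' p-values were made. Even so, the p-values of 7SL lay farthest apart, at -56.18 against -58.63.

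These read numbers show how much evidence each RNA carries. Both copies of 7SL together had 503.1 reads with Musclin (95% exact Poisson interval 460.0 to 548.9) and 44 with vehicle (32.0 to 59.1). 7SK had 109 reads with Musclin (89.5 to 131.5) and 21 with vehicle (13.0 to 32.1). Rpph1 had 27 reads with Musclin (17.8 to 39.3) and 7 with vehicle (2.81 to 14.4). Rmrp had 28 reads with Musclin (18.6 to 40.5) and a single read with vehicle (0.0253 to 5.57). In the Musclin library Rmrp and Rpph1 thus differed by 1 read, although their levels there were 68.6 and 34.0. Intervals on reads cover counting error only, since reads of one PCR product are not independent molecules.

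The fold of Rmrp was the largest and the least exact. Its 95% counting interval, from an exact binomial interval on the reads, ran from 5.46 to 1351. The interval of 7SL was 9.90 to 18.8 around the 13.5-fold difference of the authors' deposited table. That of 7SK was 3.81 to 10.3 and that of Rpph1 1.93 to 12.4, so Rpph1 alone had an interval that reached below 2-fold. In the order Rmrp, 7SL, 7SK and Rpph1, the interval of each RNA overlapped that of the next. Whether neighbours in this order differ was not tested.

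**Figure D2:**
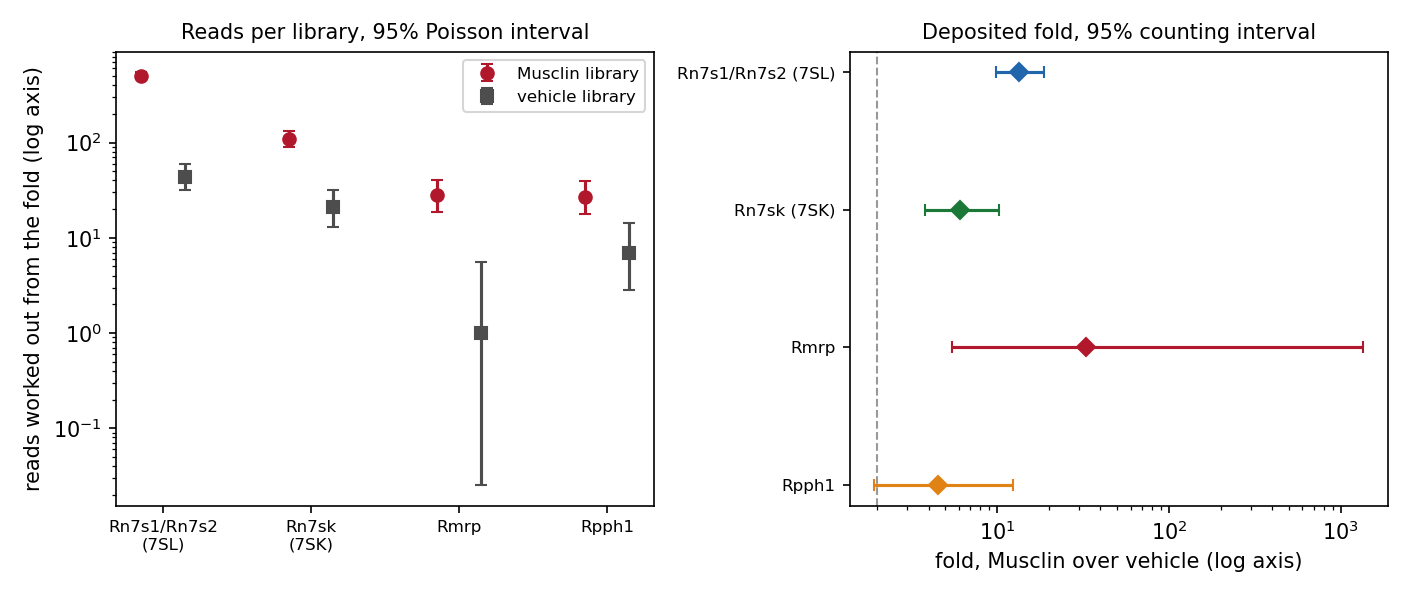
Left, reads per library worked out from the authors' deposited table (log axis), Musclin as circles and vehicle as squares, with 95% exact Poisson intervals; Rn7s1 and Rn7s2 are summed. Right, fold of Musclin over vehicle in the authors' deposited table (log axis) with its 95% counting interval; the dashed line marks 2-fold, which the interval of Rpph1 crosses and that of Rmrp, the widest, does not.

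A single read weighed differently in the level of each RNA. In the vehicle library 1 read was worth a level of 1.99 for Rmrp, 1.31 for each copy of 7SL, 1.04 for Rpph1 and 0.91 for Rn7sk. In the Musclin library these worths were 2.45, 1.60, 1.26 and 1.10. The shorter the transcript, the more a read counted. A line through reads per unit of level against length, for the 3 RNAs with whole reads, met 0 at 221.7 nt in the Musclin library and 219.9 nt in the vehicle library. The same lines gave a copy of 7SL 259.1 reads with Musclin and 22.6 with vehicle, near the 251.55 and 22.0 that had been placed with their help.

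Length also ordered the gap between fold and level ratio. RSEM, named in the submitters' processing notes, takes the length of a transcript less that of the sequenced fragment as the length that yields reads; its part in this gap was not tested. The log2 fold in the authors' deposited table minus the log2 ratio of the levels was -0.06 for Rmrp, -0.05 for 7SL, -0.04 for Rpph1 and -0.03 for Rn7sk. It was more negative for shorter transcripts over listed genes with 1 annotated transcript and a level of at least 1 in both libraries, with Mrto4-ps2, Gm12250, Gm26561 and Gm28047 as exceptions. The median gap was -0.05 for the 6 genes under 400 nt (the 5 described here and Gm7862), -0.01 for 7 genes of 400 to 600 nt, 0.0027 for 7 genes of 600 to 1000 nt, and 0.01 for 12 genes of 1000 nt or more. The gap was at most 0.06 in size for the RNAs described here, beside log2 folds of 2.19 to 5.05 in the authors' deposited table. The choice between fold and level ratio thus moved none of them by much: the level ratios were 34.5 for Rmrp, 13.9 for 7SL, 6.27 for Rn7sk and 4.67 for Rpph1.

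**Figure D3:**
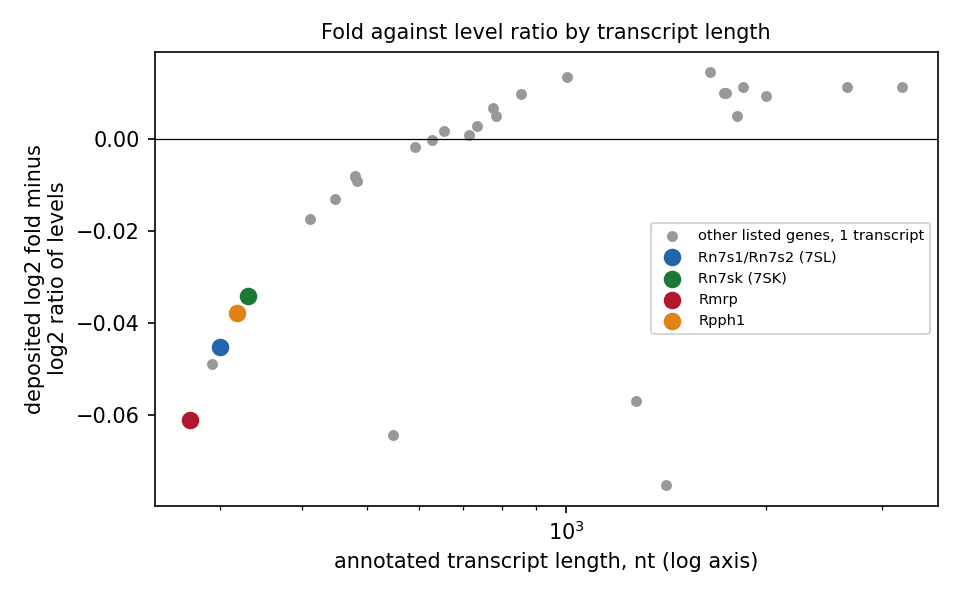
Log2 fold of the authors' deposited table minus log2 ratio of the levels (vertical axis) against annotated transcript length in nt (log axis), for 32 listed genes with 1 annotated transcript and a level of at least 1 in both libraries. The short structural RNAs (coloured) lie at the short end, from -0.06 for Rmrp to -0.03 for Rn7sk; Gm28047, at -0.44, was left outside the axis, and Mrto4-ps2, Gm12250 and Gm26561 lie below the other genes of like length.

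At a vehicle level of at least 1, the RNAs were among the listed genes with the largest ratio of levels. They had been grouped by these same values, so their ranks only describe them. Below that level Slc17a9 had a larger ratio than any of them, 44.3, at 1.33 with Musclin and 0.03 with vehicle. Among the 74 listed genes with a vehicle level of at least 1 and a Musclin level above 0, Rmrp had the highest ratio of levels and the copies of 7SL the next. Rn7sk ranked 4 and Rpph1 ranked 7 in that order. Between them stood Cxcl10, an interferon-induced chemokine chosen for mention after its values were seen, at 6.29 with Musclin and 1.09 with vehicle, and Gm7862. By fold in the authors' deposited table, where genes at a level of 0 are included, Rmrp ranked 11 of 179, 7SL 29, Rn7sk 46 and Rpph1 59. The median fold of the 116 genes listed as higher with Musclin was 4.56, so Rpph1, at 4.55, was not above it. In the Musclin library each copy of 7SL ranked 7 by level, Rn7sk 10, Rmrp 13 and Rpph1 17. In the vehicle library the ranks were 12 for each copy of 7SL, 17 for Rn7sk, 60 for Rmrp and 34 for Rpph1.

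**Figure D4:**
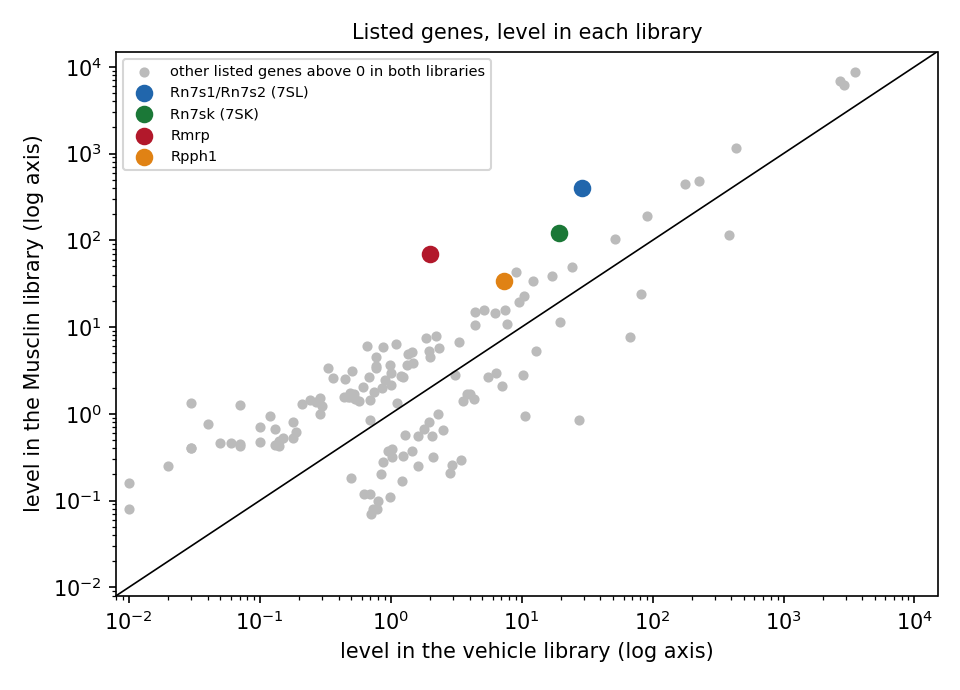
Level in the Musclin library (vertical, log axis) against level in the vehicle library (horizontal, log axis) for the listed genes above 0 in both libraries; the line marks equal levels. The 4 distinct short structural RNAs (coloured) lie above the line, Rmrp farthest from it, at 68.6 against 1.99.

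Among the listed genes above 0 in both libraries, those nearest to each RNA in log2 fold were mostly of another kind. Likeness was the distance between log2 folds in the authors' deposited table, over 1 comparison of 2 libraries. For 7SL these were Kcnh3, a potassium channel, and the processed transcript Gm14636. Both differed 12.98-fold in the authors' deposited table, but had levels of only 0.25 and 0.40 with Musclin and 0.02 and 0.03 with vehicle. For Rn7sk they were Pdzk1, a scaffold protein, at 5.97 with Musclin and 0.66 with vehicle, and Gm47826, at 0.43 and 0.07 in the same libraries. For Rmrp the nearest of these genes, Gm26776 and the nucleotide transporter Slc17a9, were 0.89 and 1.11 away on the log2 scale. For Rpph1 the nearest were Gm47404, at 0.81 with Musclin and 0.18 with vehicle, and Gm7862. Gm7862, a processed pseudogene with a transcript of 292 nt, also came near in level, at 43.2 with Musclin and 9.04 with vehicle.

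Shortness was shared with 9 other listed genes whose longest annotated transcript was under 400 nt. Of these, 4 were higher with Musclin and 5 were lower, and Gm7862 was the one above 0 in both libraries. Gm10241, Gm37375 and Gm17122 had levels of 21.8, 15.2 and 9.43 with Musclin and were listed at 0 with vehicle. The reverse held for Gm43590, Dynlt1-ps1, Gm37167, Gm43198 and Gm37401, listed at 0 with Musclin and at 13.9, 13.1, 12.7, 9.91 and 8.76 with vehicle. The listed short genes outside the group thus went in both directions, 8 of the 9 with a level of 0 in 1 library. How short genes in general went cannot be read from this, since the table holds only genes that met the authors' criteria.

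Near-identical copies limit what the values of 7SL and 7SK can be assigned to. Beside each other, Rn7s1 and Rn7s2 had near-identical copies in Rn7s6, Gm24514, Gm23153 and Gm26461, meaning at least 95% identity along 50% or more of the RNA. Rn7s6 matched bases 1 to 214 of Rn7s1 at 98.6% identity. 7SK had 5 such copies, namely Gm24447, Gm24146, Gm23973, Gm26315 and Gm26035. Of these, Gm24447 was identical over bases 1 to 241 and Gm26315 over bases 5 to 239. None of these copies other than Rn7s1 and Rn7s2 was listed. Rmrp and Rpph1 had 0 such copies outside their own loci. The reads worked out for Rmrp and Rpph1 were whole, as were those of 7SK, while the 251.55 reads of a 7SL copy were not. The rodent B1 repeat descends from 7SL. In a search open to weaker matches, transcripts of 904 genes, or 1.63% of 55450, matched 7SL, the near-identical copies included. How many of these matches lay in B1 repeats was not tested. Among the 178 annotated listed genes 4, or 2.25%, had such a match. These were Gm26561, Ovgp1, Bst1 and A530083I20Rik, with 46 to 61 aligned nt at the start of 7SL.

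Some bases of the RNAs are also shared with other genes at the same place. Bases 36 to 159 of Rmrp lie under an exon of Ccdc107 on the opposite strand, and a second annotated Rmrp gene covers the whole RNA. Bases 36 to 268 of Rpph1 lie under an exon of Ccnb1ip1 on the same strand. Bases 143 to 212 and 224 to 300 of Rn7s1 are annotated a second time as miRNA genes, and those of Rn7s2 likewise. Neither Ccdc107 nor Ccnb1ip1 was listed. The labels do not say whether the libraries kept strand, so reads from Rmrp and from the overlapping exon of Ccdc107 may not be told apart. Even with strand kept, reads within the shared bases would not separate Rpph1 from Ccnb1ip1, or Rmrp from the second annotated Rmrp gene, which lies on the same strand.

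The neighbouring protein-coding genes were not listed either. Parp2, a DNA repair enzyme, starts 73 nt beyond the 5′ end of Rpph1 and runs the other way. Rps29, a ribosomal protein, likewise starts 108 nt from Rn7s1, and Lrr1 9219 nt beyond it. Nemf and Gm9887 flank Rn7s2, Ick and Gsta4 flank Rn7sk, and Sit1 and Arhgef39 flank Rmrp. Ttc5 lies on the far side of Rpph1. A gene outside the table is not shown to be equal in both libraries, since the table holds only genes that met the authors' criteria.

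RNase RNAs and 7SK have their promoters outside the transcribed part, where the octamer ATGCAAAT, a binding sequence of the factor Pou2f1, is a usual upstream element. The windows shown are RefSeq promoters (GRCm38.p6) of Ccdc107 and Parp2, and hold some of the bases upstream of Rmrp and Rpph1. The Ccdc107 window begins 57 nt upstream of the 5′ end of Rmrp, so the nearest upstream bases are not shown, and the Parp2 window begins inside Rpph1. Both are written on the plus strand, with the octamer, searched on both strands, in capitals.
Ccdc107 window (chr4:43493115-43493414): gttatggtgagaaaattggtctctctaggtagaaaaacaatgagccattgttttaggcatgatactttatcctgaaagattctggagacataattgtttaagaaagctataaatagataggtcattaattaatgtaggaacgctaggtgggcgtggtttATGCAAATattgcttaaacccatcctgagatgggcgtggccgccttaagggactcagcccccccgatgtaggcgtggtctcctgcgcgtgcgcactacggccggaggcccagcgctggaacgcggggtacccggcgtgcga
Parp2 window (chr14:50807666-50807965): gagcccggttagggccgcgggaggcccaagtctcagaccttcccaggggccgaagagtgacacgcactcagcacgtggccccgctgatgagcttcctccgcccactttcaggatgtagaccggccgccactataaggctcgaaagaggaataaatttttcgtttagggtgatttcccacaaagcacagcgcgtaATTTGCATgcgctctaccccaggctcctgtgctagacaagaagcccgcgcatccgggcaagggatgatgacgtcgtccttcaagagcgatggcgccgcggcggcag

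The octamer began 216 nt upstream of Rmrp and 93 nt upstream of Rpph1. It occurred in 1.74% of 32851 promoter windows of 300 bases. The window of C920006O11Rik, whose bases begin 31 nt upstream of Rn7sk, did not hold these letters. Windows of the RNAs' own starts were not used here.

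Lists of genes for protein partners of these RNAs were also looked up in the table. They took in 14 genes of the 7SK particle and P-TEFb (Larp7, Mepce, Hexim1 and Cdk9 among them), 17 of the signal recognition particle, its receptor and the translocon, and 12 proteins of RNase P and RNase MRP. They also held 18 subunits of RNA polymerase III, 23 of its initiation factors and regulators, such as Brf1, Gtf3c1, Snapc1 and Maf1, and 16 factors of 3′ end processing and decay, of which 14 were in the annotation under these names. Together these were 100 distinct genes, of which 0 were listed in either direction, where 0.772% of all genes tested were listed; so low a share leaves a count of 0 near the background. For each of them the table shows only that the authors' criteria were not met, or that the gene was not analysed here.

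Other groups of RNAs were counted against the same share of 0.772%, at which lists of these sizes would hold few listed genes or none. Of these groups, the RNA polymerase III transcripts and the small RNAs of RNA polymerase II lack a poly(A) tail, as histone mRNAs usually do. Of 6 further RNA polymerase III transcripts, 5 of them in the annotation, among them the Y RNAs Rny1 and Rny3 and the vault RNA Vaultrc5, 0 were listed. Of 19 small RNAs of RNA polymerase II, such as Terc, the telomerase RNA, 17 were in the annotation and 0 were listed. The shortest listed gene had a transcript of 271 nt. Whether RNAs shorter than that could be listed at all was not tested, so these counts of 0 do not set such RNAs apart. Of 58 replication-dependent histone genes, 1 was higher and 1 lower with Musclin. Hist1h2br had a level of 3.67 with Musclin and 0.98 with vehicle, and Hist1h2bq was listed at 0 with Musclin and had 4.27 with vehicle. Each has 3 annotated transcripts, the longest of 2197 nt for Hist1h2br and 2015 nt for Hist1h2bq. Whether their reads came from a form without a tail was not tested. Among 13 long noncoding RNAs, a list that mixes RNAs with and without a tail, Malat1 and Neat1 included, 0 were listed. Of 15 mitochondrially encoded genes, mt-Co3, a subunit of cytochrome c oxidase, was listed, with a level of 488.6 with Musclin and 225.0 with vehicle.

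Of the marker lists of other cells, the erythroid one alone had listed members. Of all genes tested 0.772% were listed, so a count of 0 is near the background for lists this short. The counts therefore do not contrast the cell types. Of 5 erythroid markers, Hbb-bs, Hba-a1 and Hbb-bt were higher, with levels of 33.9, 14.9 and 2.53 with Musclin and 12.3, 4.39 and 0.45 with vehicle, and Hba-a2 and Alas2 were not listed. Of 5 macrophage, 3 endothelial and 4 myogenic markers, 0 were listed. Neither was any of the 6 FAP markers, so the labelled cell type could not be checked in this table. The part of red cells, of RNA quality and of library preparation in the levels of the short RNAs was not tested. With 1 library per group, more of these RNAs in the cells and more of them taken up into the library cannot be told apart.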

How the data were processed

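The data were 1 RNA-seq library of FAPs treated with Musclin and 1 treated with vehicle. The submitters' processing notes name the tools RSEM and edgeR and the build GRCm38.p5, with no role for any. The authors' deposited table gives, per the file headers, an expression signal (called level; unit not stated, columns printed in duplicate with identical values), a fold ratio of Musclin over PBS, a p-value and an adjusted p-value. The authors took log2 of this ratio before the table was deposited, per the file headers. For genes at 0 the deposited fold ratio is finite, so no fold is quoted for them. The depth of the libraries is unknown.

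The number of genes tested, 23180, is the one that makes tested number times p over adjusted p whole (within 0.001) for all 178 genes with p above 0. The reads behind a fold were worked out by finding the common factor that turns the largest number of folds into ratios of small whole numbers. Among simple multiples of it, the one whose pairs, or whole multiples of them, came nearest to the deposited p-values was taken. This was devised after seeing the data. Both procedures were tested on simulated data. For the reads, the simulated counts were whole and their p-values came from the same binomial formula that the procedure matches. That test thus says nothing about fractional reads, such as those of 7SL, or about how the authors' p-values were made. Poisson and Clopper-Pearson intervals are at 95%, on reads rounded to whole numbers. Annotation and sequences came from GENCODE M21 and RefSeq, and the sequence of 7SL is not reported here; copies were found with BLAST+ 2.17.0 (megablast, and blastn at 1e-05 for weaker matches), in Python 3.11.15 with scipy 1.17.1.

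The RNAs, gene lists, named-gene rule and settings were chosen with earlier results of these data known. The rule named the RNAs, listed members of the lists, listed genes under 400 nt, the 2 nearest in fold, neighbouring genes and genes with sequence matches. No test across samples was possible.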

Additional observations from a re-analysis of the deposited data

How the results depend on the processing

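Each group being 1 library, leaving out a replicate could not be tried. No paired analysis was possible because each group has 1 library. Recomputing the log2 level ratios of the 4 distinct RNAs gave 25 values, counted over RNAs and settings together. Of these values 20 stayed within 1.5-fold of the main one, while 0 changed sign. The sum of both 7SL copies, among them, equals the main value by construction. A pseudocount of 5 gave 3.40 for Rmrp, against 5.11 without one, since its vehicle level was 1.99. Centring on the median log2 ratio of listed genes above 0 in both libraries (1.32) gave 3.79 for Rmrp, 2.48 for 7SL, 1.33 for Rn7sk and 0.90 for Rpph1, a lowering that follows from the choice of listed genes as centre. All 4 were at least 2-fold higher at each pseudocount, at 4-fold and by the fold of the authors' deposited table; 3 remained at an adjusted p of 0.001 in the authors' deposited table, and 3 had a counting interval above 2, Rpph1 falling out each time. The read ratio and the counting interval were chosen after seeing the data. Of the 116 genes higher and 63 lower in the authors' deposited table, 72 and 34 had an adjusted p of 0.01 or less, 52 and 16 one of 0.001 or less, and 61 and 36 changed 4-fold or more.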
